A study of Mus musculus with 2756 samples.

Results

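The genes described here are 30 mouse genes of cholesterol and fatty acid synthesis, chosen by name from a fixed list, and all 30 were among the 16441 genes of the deposited count table. They comprise 7 genes of the mevalonate steps (Acat2, Hmgcs1, Mvk, Pmvk, Mvd, Idi1 and Fdps) and 11 genes of the steps from squalene to cholesterol (Fdft1, Sqle, Lss, Cyp51, Tm7sf2, Msmo1, Nsdhl, Hsd17b7, Ebp, Sc5d and Dhcr7). A further 5 genes control the pathway or carry sterols (Insig1, Srebf1, Srebf2, Scap and Stard4), and 7 make or modify fatty acids (Fasn, Acaca, Acly, Scd1, Scd2, Elovl5 and Elovl6).

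Their transcripts were measured in 2756 single cells of the mouse embryonic neocortex that had been labelled with FlashTag, a dye taken up by cells dividing at the ventricular surface when it is injected. Embryos were injected on day 12, 13, 14 or 15 of gestation (written E12, E13, E14 and E15), and cells from the presumptive somatosensory cortex were collected 1, 24 or 96 h afterwards, sorted on the brightest 5% and captured on a C1 circuit. The authors' cluster names were grouped into apical progenitors (AP), the dividing cells that line the ventricle; basal progenitors (BP), their dividing daughters; the clusters of young neurons that the authors named for 1 day (N1d) and for 4 days (N4d); interneurons, written IN; and astrocytes, written Astro. No strain, sex, genotype or animal was named for any cell, so all reads of a class within 1 injection day and collection time were summed and each sum was 1 sample. Sums of 6 kinds are used, each for 4 injection days: the 24 h sums of N1d, BP and AP cells, the 1 h sum of AP cells, and the 96 h sums of IN and N4d cells.

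Cells make cholesterol from acetyl-CoA through mevalonate and squalene, and they make fatty acids from the same acetyl-CoA through malonyl-CoA. When sterols run low in the endoplasmic reticulum, Scap carries the precursors of the transcription factors encoded by Srebf1 and Srebf2 to the Golgi for cleavage, and the released proteins switch on most genes of both pathways; Insig1 holds Scap back when sterols are plentiful. The brain is shielded from the cholesterol of blood and relies on its own synthesis, to which astrocytes contribute strongly after birth.

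SREBP proteins bind sterol regulatory elements, usually beside binding boxes for NF-Y and Sp1. Upstream stretches of 3 members that passed a test below are shown as examples of how these boxes lie before the start: Hmgcs1, an early enzyme of sterol synthesis, Fasn, fatty acid synthase, and Acly, which makes the acetyl-CoA that both use. Each runs 5′ to 3′ over the last 150 bases before the annotated start (RefSeq, GRCm38.p6), with matches on either strand to TCACNCCAC (sterol regulatory element), CCAAT (NF-Y box) and GGGCGG (Sp1 box) in capitals. Hmgcs1 lies at chr13:119690201-119690350 on the plus strand, Fasn at chr11:120824548-120824697 on the minus strand and Acly at chr11:100528001-100528150 on the minus strand.
Hmgcs1: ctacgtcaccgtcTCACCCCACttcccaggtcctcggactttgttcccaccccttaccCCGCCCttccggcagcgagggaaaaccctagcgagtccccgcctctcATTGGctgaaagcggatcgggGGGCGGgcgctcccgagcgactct
Fasn: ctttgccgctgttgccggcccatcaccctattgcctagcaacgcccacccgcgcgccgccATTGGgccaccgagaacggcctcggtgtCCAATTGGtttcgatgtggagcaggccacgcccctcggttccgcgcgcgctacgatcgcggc
Acly: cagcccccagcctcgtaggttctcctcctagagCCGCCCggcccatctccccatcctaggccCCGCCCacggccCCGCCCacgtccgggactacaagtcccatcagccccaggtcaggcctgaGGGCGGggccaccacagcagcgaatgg
The Hmgcs1 stretch holds a sterol regulatory element match, the Fasn stretch holds CCAAT matches of which a pair on opposite strands overlap, and the Acly stretch holds GGGCGG matches. Promoters from 250 bases before to 50 bases after the start were on file for 24 of the 30 members. The sterol regulatory element letters were found in 1 of the 24, against 1.44% of all 27025 genes with such a promoter. Only exact matches to TCACNCCAC were searched, so other forms of the element would not be counted. CCAAT was found in 20 of the 24, against 41.1% of all genes, and GGGCGG in 19 of the 24, against 38.2% of all genes.

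The 12 conditions of injection day and collection time held 52.3 to 99.04 M read counts each, and a cell had a median of 328910 counts. Levels are given as CPM, the gene's reads per 1000000 reads of the sum, and a set of 4 values runs from E12 to E15. The class names were checked on marker genes: the summed level of 8 AP markers was 494 to 1106 CPM in N1d cells, 1108 to 3298 CPM in BP cells and 3961 to 8711 CPM in AP cells at 24 h, and 6 IN markers summed to 1536 to 2265 CPM in IN cells against 79.1 to 214.9 CPM in N4d cells. The 6 excitatory neuron markers did not separate these 2 classes, with 4676 to 6219 CPM in IN cells and 5815 to 7799 CPM in N4d cells. Among them Neurod2 and Neurod6 were lower in IN cells but present, at 193.5 to 302.4 and 114.3 to 362.7 CPM. Dcx and Bcl11b were higher in IN cells. Of the markers of oligodendrocyte precursors, microglia, endothelial and mural cells and meninges that the table holds, the summed levels were at most 15.5, 9.25, 29.2 and 9.62 CPM in these sums. Collection time coincides with a code in the cell names, which the labels do not explain and which is read here, as an assumption, as the code of a run. At 24 h and 96 h E12 shares a code with E13, and E14 with E15. Classes within 24 h or within 96 h were therefore compared inside runs, while class, time and run cannot be told apart between collection times. Day sums are single samples whose cells may come from few animals, so each p-value measures the spread between these sums, which may be partly technical.

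The summed level of the sterol synthesis genes had its highest mean in AP cells at 24 h and its lowest in IN cells. The 18 genes from mevalonate to cholesterol together took 2440 ± 233.6 CPM in AP cells at 1 h (SD, n = 4 here and below). At 24 h they took 2218 ± 639 CPM in N1d cells, 1962 ± 364 CPM in BP cells and 2961 ± 680 CPM in AP cells. At 96 h they took 1167 ± 375 CPM in IN cells and 2157 ± 366 CPM in N4d cells. The values of N1d, BP, N4d and AP cells at 1 h overlapped. All 4 IN sums lay below all 4 N4d sums, but the E14 IN sum (1707 CPM) came close to the E15 N4d sum (1740 CPM). The IN range also overlapped those of N1d and BP cells, whose E15 sums were 1277 and 1495 CPM. The 7 fatty acid genes took 1829 ± 181.8 CPM in AP cells at 1 h. At 24 h they took 1348 ± 208.7 CPM in N1d cells, 1218 ± 290.8 CPM in BP cells and 1684 ± 261.6 CPM in AP cells, and at 96 h 934 ± 117.6 CPM in IN cells and 1185 ± 191.1 CPM in N4d cells. The 5 control and carrier genes took 311 ± 12.9 CPM in AP cells at 1 h, and 76.9 ± 34.7 CPM in IN cells against 164.4 ± 29.6 CPM in N4d cells.

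**Figure D1:**
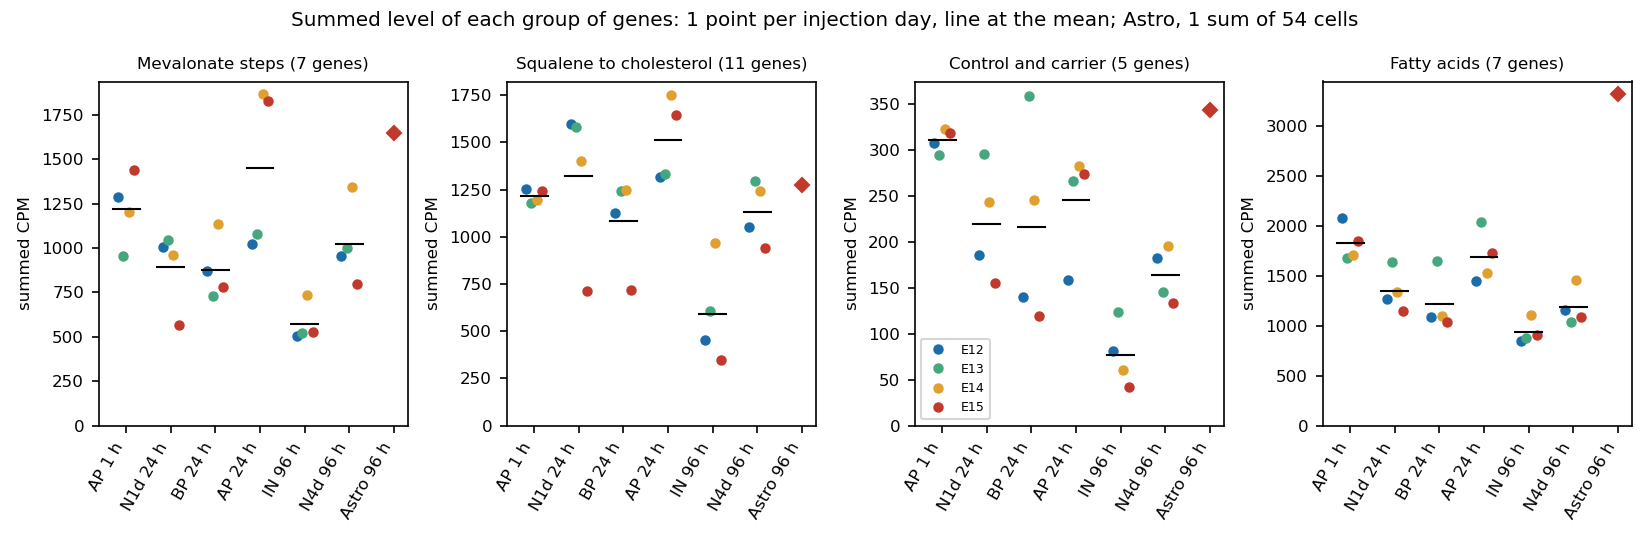
Summed CPM of each group of genes in every class sum; points are injection days, lines the means of 4 days, and the diamond the single E15 astrocyte sum of 54 cells. For squalene-to-cholesterol genes, the E12, E13 and E15 points of IN and the E15 points of N1d (712 CPM) and BP (716 CPM) lie low. The E14 IN point (969 CPM) lies above the E15 N4d point (942 CPM). The fatty acid sum of astrocytes (3324 CPM) lies above every other plotted point.

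Divided by exon length, the members with the highest mean level in AP cells at 1 h were Scd2, the main stearoyl-CoA desaturase of brain, with up to 208.6 CPM per kb in a sum; Acat2, the cytosolic thiolase, with up to 145.6 CPM per kb; and Hmgcs1, which makes HMG-CoA, with up to 147.9 CPM per kb. The lowest means belonged to Srebf1, at 3.85 CPM per kb, Scd1, another desaturase, at 3.41 CPM per kb, and Tm7sf2, a sterol reductase, at 2.15 CPM per kb. Reads of Acat2 could be shared with its near copy Acat3, which has 41.7% of its 70-base stretches. Idi1 has 29.4% of its stretches in common with other genes, 20.8% with Gm13502, and Hmgcs1 has 12.5% in common with Gm48342.

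**Figure D2:**
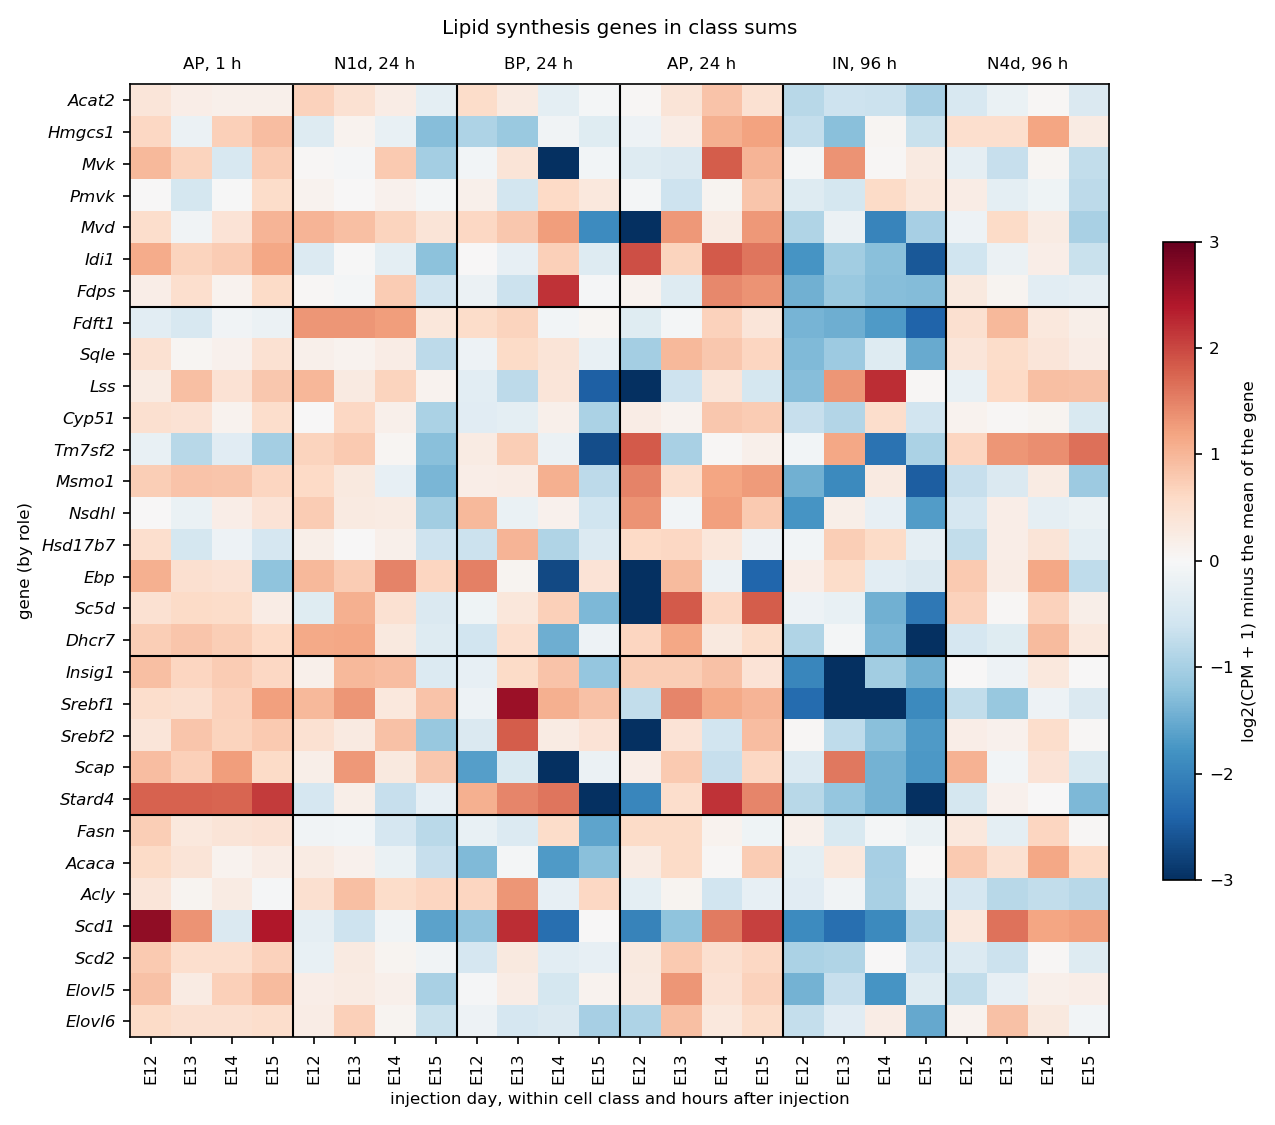
Heat map of the 30 genes (rows, by role: mevalonate, squalene to cholesterol, control and carrier, fatty acids) in 24 class sums (columns), coloured by log2(CPM + 1) minus the mean of the gene. The IN columns and the E15 column of N1d are mostly blue (low), and the AP columns mostly red (high).

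The 24 h cells allow progenitors and their newborn neurons to be compared within the same runs. In N1d cells, 3 of the 30 genes fell and 1 rose relative to AP cells: Idi1, Msmo1 and Scd2 were lower and Acly was higher. The test called 11.0% of all 9969 genes tested, 5.35% higher and 5.62% lower (edgeR quasi-likelihood test, adjusted p under 0.05), so 4 of 30 is close to the background. The median change of the 30 genes was -0.49 on the log2 scale, against 0.09 over all genes, and 21 of the 30 changes were negative.

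Idi1, the isomerase that makes the 5-carbon units joined into sterols, had 49.9, 66.5, 54.3 and 28.0 CPM in N1d cells, against 257.9, 107.3, 243.4 and 207.7 CPM in AP cells at 24 h. Every N1d sum was below every AP sum. The log2 change was -2.03 ± 0.37 (SE, adjusted p = 0.0046, edgeR), and BP cells lay nearer to N1d cells, at 67.5, 56.6, 110.4 and 51.1 CPM. Msmo1, which removes methyl groups from the sterol ring, had 307, 245.8, 169.4 and 77.03 CPM in N1d cells, against 568, 288.2, 458 and 489 CPM in AP cells. The N1d and AP values of Msmo1 overlapped at 1 day, E13 in AP cells lying below E12 in N1d cells, and its change of -1.31 ± 0.38 was at the edge of the threshold (adjusted p = 0.0499, edgeR).

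Scd2 had 560.4, 793, 699 and 609 CPM in N1d cells, against 809, 1133, 914 and 1009.9 CPM in AP cells at 24 h, and the groups did not overlap. Its log2 change was -0.53 ± 0.11 (adjusted p = 0.0120, edgeR). Acly, ATP citrate lyase, moved the other way, with 260.3, 354, 275.1 and 292.8 CPM in N1d cells against 154.2, 197.8, 125.1 and 158.3 CPM in AP cells. All N1d values were above all AP values, and the change was 0.93 ± 0.20 (adjusted p = 0.0125, edgeR). Without E15, no call of these 4 was kept (adjusted p of 0.0596 for Idi1, 0.245 for Msmo1, 0.102 for Scd2 and 0.0878 for Acly, edgeR), but the 4 changes kept their direction in every alternative. Msmo1 also lost the call without E12, E13 or E14 (0.117, 0.0612 and 0.101), and Scd2 without E12 (0.0578). With no filter on low counts, Msmo1 lost it as well (0.0993).

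**Figure D3:**
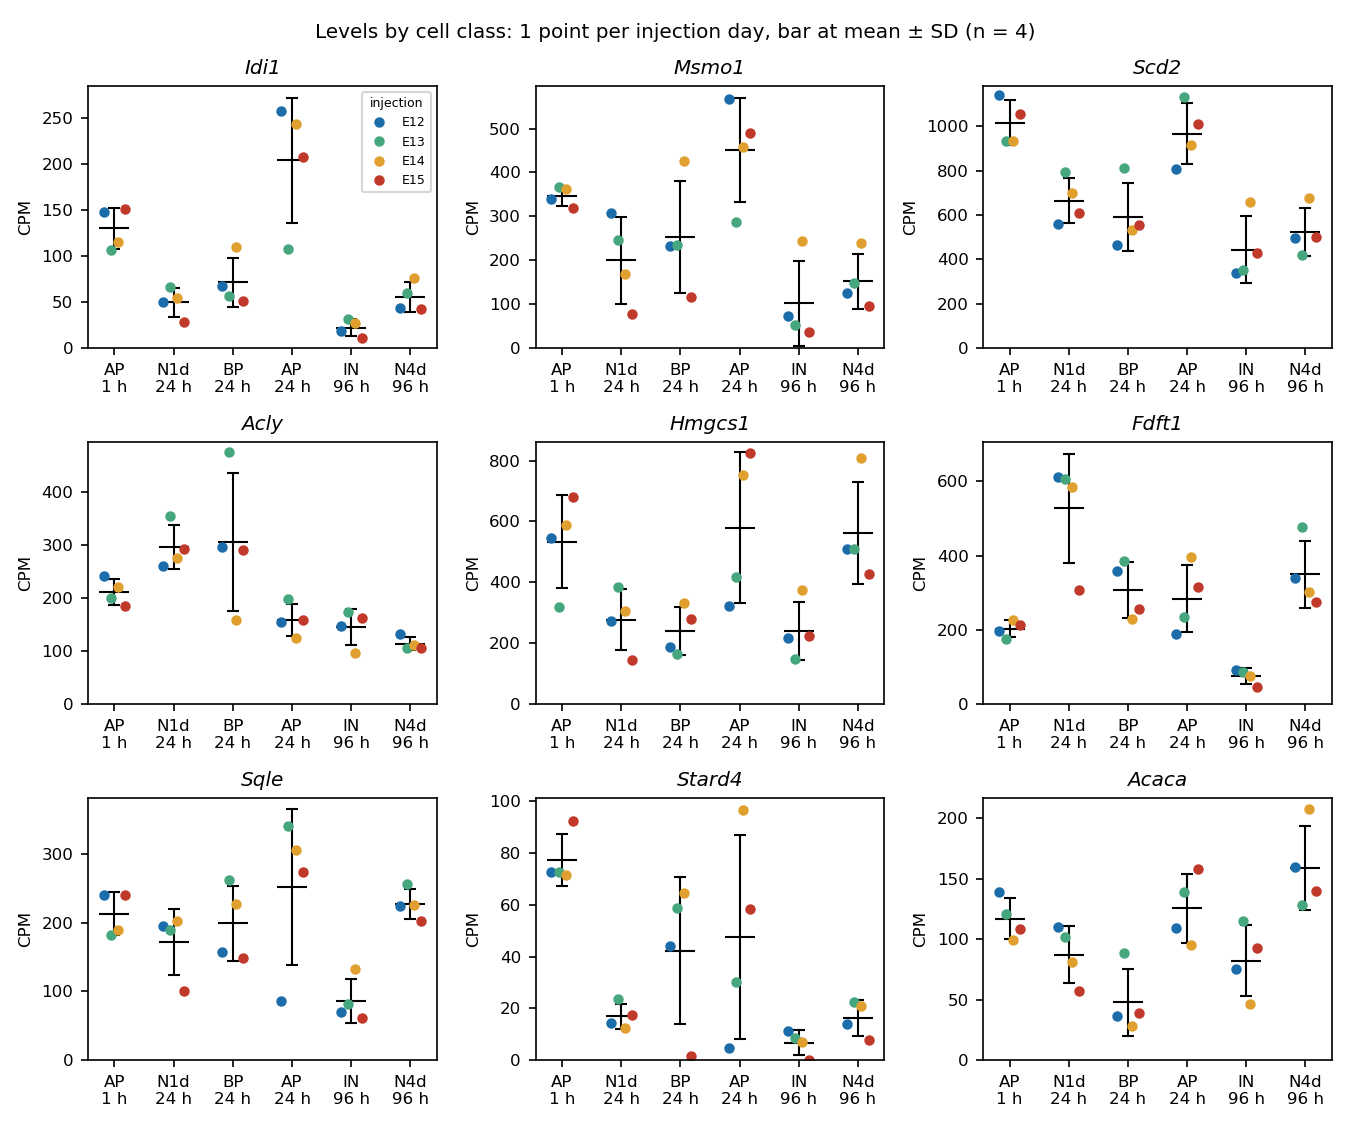
CPM of 9 members in each class, with 1 point per injection day and a bar at the mean ± SD (n = 4). Idi1, Msmo1 and Scd2 are higher in AP than in N1d cells at 24 h, Acly peaks in the 24 h classes BP and N1d, and Fdft1 is high in 3 of 4 N1d sums and low in every IN sum.

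BP cells, which lie between AP cells and neurons, had 1 of the 30 genes past the threshold against AP cells, where 1.06% of all genes were called and 0.361% called lower. That gene was again Scd2, at 465, 813, 531 and 555 CPM in BP cells against 809, 1133, 914 and 1009.9 CPM in AP cells, a change of -0.71 ± 0.11 (adjusted p = 0.0152, edgeR). Only the E13 BP sum reached the lowest AP sum. Acly (0.90 ± 0.20, adjusted p = 0.0635), Idi1 (-1.54 ± 0.36, adjusted p = 0.0722) and Acaca, the first committed enzyme of fatty acid synthesis (-1.48 ± 0.36, adjusted p = 0.0875), did not pass in edgeR. The Scd2 call was lost without any 1 of E12, E13, E14 or E15 (adjusted p = 0.0790, 0.0603, 0.0529 and 0.153, edgeR), and the E14 BP sum held 8 cells. Between N1d and BP cells none of the 30 passed in edgeR, where 3.63% of all genes did. There 3 members had an unadjusted p under 0.05 (Fdft1, Scap and Acaca), and DESeq2 called 1, Scap.

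In N1d cells at 24 h, 8 of the 30 genes were lower and 2 were higher than in AP cells at 1 h. The background was 33.4% of 10195 genes, 17.6% higher and 15.8% lower, so 10 of 30 is close to it. The genes that fell included 4 of the 7 fatty acid genes (Fasn, Scd1, Scd2 and Elovl5), and the others were Hmgcs1, Idi1, Msmo1 and the sterol carrier Stard4. Fdft1 and Acly rose.

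Stard4, which moves cholesterol between membranes, had 14.4, 23.5, 12.4 and 17.3 CPM in N1d cells, against 72.6, 72.7, 71.6 and 92.2 CPM in AP cells at 1 h. The groups were far apart, and the change was -2.20 ± 0.36 (adjusted p = 0.000621, edgeR). In AP cells at 24 h, however, Stard4 spread over 4.55, 30.3, 96.5 and 58.5 CPM. Fdft1, squalene synthase and the first enzyme committed to sterols, had 611, 607, 584 and 308 CPM in N1d cells against 196.9, 174.3, 225.9 and 214.02 CPM in AP cells at 1 h. Every N1d value was above every AP value, and the change was 1.35 ± 0.20 (adjusted p = 0.000264, edgeR). Within 24 h the change of Fdft1 over AP cells was 0.87 ± 0.28 and did not pass (adjusted p = 0.0669, edgeR), but it passed with DESeq2 (0.0110) and in edgeR on sums of at least 10 cells (0.0390).

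Fdft1 overlaps Ctsb, a lysosomal protease gene on the opposite strand, over 774 exon bases or 18.3% of its exon length, and no source states whether strand was used in counting. Ctsb had 169.1, 208.9, 270.1 and 270.97 CPM in N1d cells against 157.95, 148.9, 161.8 and 150.6 CPM in AP cells at 1 h, a change of 0.55 ± 0.15 (adjusted p = 0.0157, edgeR). In the E15 N1d sum Fdft1 was lowest and Ctsb highest.

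Hmgcs1 had 272.9, 385, 306 and 146.3 CPM in N1d cells against 547, 319, 587 and 679 CPM in AP cells at 1 h (-0.96 ± 0.29, adjusted p = 0.0290, edgeR), with overlap at E13. Idi1 fell to 28.0 to 66.5 CPM in N1d cells, against 107.01 to 151.01 CPM (-1.42 ± 0.28, adjusted p = 0.0021). Msmo1 fell to 77.03 to 307 CPM in N1d cells, against 318 to 366 CPM (-0.95 ± 0.26, adjusted p = 0.0138). All N1d sums of these 2 genes were below all AP sums.

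Fasn, fatty acid synthase, had 176.7, 179.5, 131.9 and 107.7 CPM in N1d cells against 314, 235.02, 247.7 and 256.2 CPM in AP cells at 1 h (-0.85 ± 0.19, adjusted p = 0.0043, edgeR). Scd2 had 560.4 to 793 CPM in N1d cells against 934 to 1139.8 CPM (-0.61 ± 0.16, adjusted p = 0.0127). Scd1 was scarce, with 2.92, 2.10, 3.40 and 0.572 CPM in N1d cells against 29.1, 11.1, 2.51 and 24.0 CPM in AP cells, and the groups overlapped at E14 (-2.95 ± 0.86, adjusted p = 0.0193). Elovl5, which lengthens polyunsaturated fatty acids, had 44.2, 45.9, 43.3 and 19.2 CPM in N1d cells against 72.2, 45.6, 63.5 and 75.3 CPM (-0.79 ± 0.27, adjusted p = 0.0418), again with overlap. Acly rose less than within 24 h, to 260.3, 354, 275.1 and 292.8 CPM against 240.4, 199.5, 221.3 and 184.5 CPM (0.49 ± 0.14, adjusted p = 0.0181). The difference between those 2 changes was not tested.

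Of these 10 calls, Fdft1 and Stard4 passed in all 8 alternatives. Without E12, only those 2 passed; the adjusted p was 0.483 for Hmgcs1, 0.0670 for Idi1, 0.122 for Msmo1, 0.130 for Fasn, 0.0546 for Acly, 0.304 for Scd1, 0.296 for Scd2 and 0.578 for Elovl5 (edgeR). Without E15, 4 passed, and Hmgcs1 (0.208), Fasn (0.0886), Acly (0.182), Scd1 (0.576), Scd2 (0.271) and Elovl5 (0.479) did not. Without E13, 6 passed, and Msmo1 (0.0900), Acly (0.146), Scd1 (0.0713) and Elovl5 (0.0605) did not; without E14, Acly did not (0.0688). With no filter on low counts, Elovl5 did not (0.0506). Dropping a day also took the calls over all genes to 1952, 2647 and 1937 without E12, E13 and E15, against 3409 with all days.

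N4d cells at 96 h over N1d cells at 24 h had 4 genes higher (Hmgcs1, Tm7sf2, Fasn and Acaca) and 3 lower (Acat2, Srebf1 and Acly), against a background of 20.4% of genes called, 10.6% higher and 9.81% lower, so 7 of 30 is close to the background. The median change of the 30 genes was -0.11, against -0.02 over all genes.

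Acly was the clearest, with 131.2, 105.7, 111.4 and 104.7 CPM in N4d cells against 260.3, 354, 275.1 and 292.8 CPM in N1d cells. The groups were widely separated, the change was -1.35 ± 0.14 (adjusted p = 8.2e-05, edgeR), and the call was kept in all 8 alternatives. Acaca rose to 159.4, 128.01, 207.3 and 139.99 CPM in N4d cells against 109.8, 101.4, 80.8 and 56.7 CPM in N1d cells (0.93 ± 0.18, adjusted p = 0.0047, edgeR), with no overlap, and lost the call only without E12 (0.144). Acaca has 48.4% of its 70-base stretches in common with the predicted gene Gm5182, so its reads may be divided between the 2. Fasn had 233.5, 155.1, 294.1 and 194.2 CPM in N4d cells against 176.7, 179.5, 131.9 and 107.7 CPM (0.61 ± 0.19, adjusted p = 0.0367), with overlap.

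Hmgcs1 had 509, 511, 808 and 426 CPM in N4d cells against 272.9, 385, 306 and 146.3 CPM in N1d cells (1.08 ± 0.30, adjusted p = 0.0277, edgeR). Every N4d sum lay above every N1d sum. Tm7sf2 had 23.0, 37.8, 39.7 and 47.8 CPM in N4d cells against 23.7, 25.6, 15.1 and 5.52 CPM (1.25 ± 0.37, adjusted p = 0.0327), and Acat2 had 206.2, 251.4, 294.1 and 213.1 CPM against 466, 393, 335 and 235.3 CPM (-0.49 ± 0.15, adjusted p = 0.0318). Both overlapped between the classes. Srebf1, the regulator best known for fatty acid genes, had 7.06, 5.10, 11.0 and 8.93 CPM in N4d cells against 25.1, 32.5, 15.6 and 23.4 CPM (-1.57 ± 0.40, adjusted p = 0.0170), with no overlap, while Srebf2, the regulator best known for sterol genes, had 29.7 to 41.9 CPM in N4d cells against 12.5 to 54.1 CPM.

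Without E12, only Acly passed, and the adjusted p was 0.283 for Acat2, 0.151 for Hmgcs1, 0.271 for Tm7sf2, 0.136 for Srebf1 and 0.434 for Fasn (edgeR). Without E15, Acly and Acaca passed, and those 5 genes stood at 0.296, 0.0721, 0.296, 0.260 and 0.166. Without E13, Acat2 (0.0722), Tm7sf2 (0.0970) and Srebf1 (0.108) were lost, and without E14 Acat2 (0.0677), Hmgcs1 (0.0921), Tm7sf2 (0.0863) and Fasn (0.212). Under equal cell weight, Tm7sf2 (0.284) and Fasn (0.0830) were lost, and with no filter on low counts Fasn (0.0761). DESeq2 also called Fdft1 lower (0.0317) and Scd1 higher (0.0215).

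**Figure D4:**
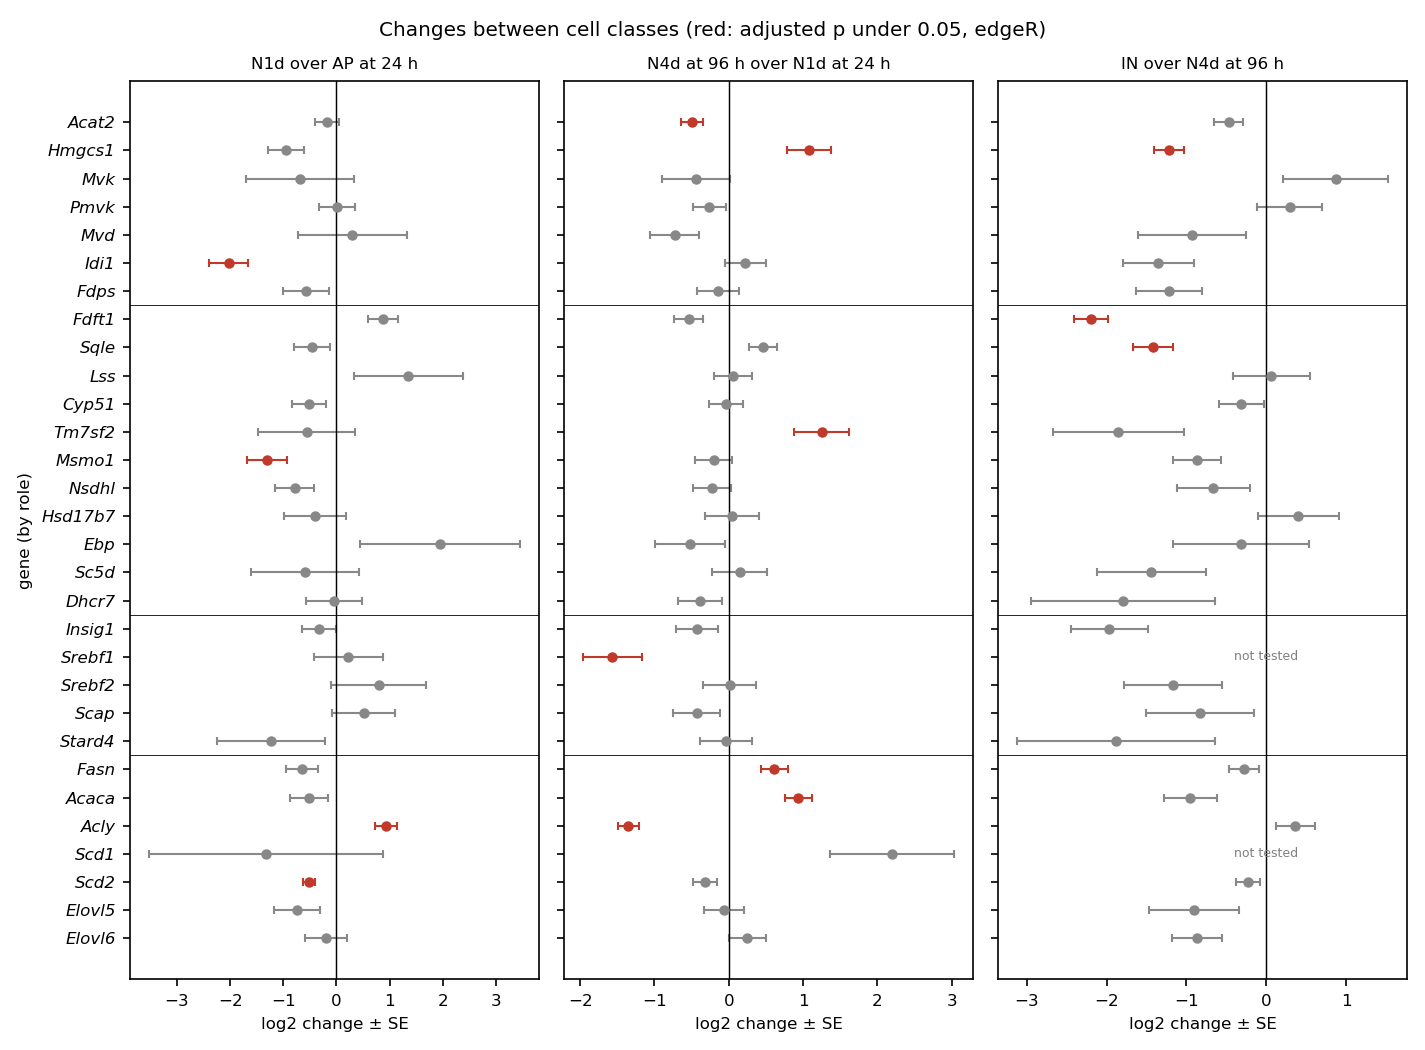
Log2 change ± SE of each gene (rows, by role) for N1d over AP at 24 h, N4d over N1d, and IN over N4d at 96 h; red marks an adjusted p under 0.05. Most points lie left of 0 in the panels of N1d over AP and of IN over N4d; Acly stands to the right in N1d over AP and to the left in N4d over N1d.

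Interneurons reached the cortex from another origin and were collected with N4d cells at 96 h. Of the 28 genes tested, 3 passed, all lower in IN cells, against 2.20% of 9362 genes called and 1.06% called lower. They were Fdft1, Hmgcs1 and Sqle, all of the sterol branch. The median change over the 28 genes was -0.89, with 23 negative, against -0.10 over all genes; for the 18 sterol genes it was -0.90, with 4 positive (Mvk, Pmvk, Lss and Hsd17b7), and for 6 fatty acid genes -0.57. Srebf1 and Scd1 were too low to be tested, at 0 to 2.55 and 0 to 1.60 CPM in IN cells against 5.10 to 11.0 and 4.90 to 13.8 CPM in N4d cells.

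Fdft1 had 92.5, 87.4, 74.8 and 45.1 CPM in IN cells against 340.4, 478, 303 and 275.3 CPM in N4d cells. The groups did not approach each other, the change was -2.20 ± 0.21 (adjusted p = 0.000427, edgeR), and it passed in all 9 alternatives. The overlapping Ctsb had 137.4, 235.2, 162.1 and 171.2 CPM in IN cells against 215.5, 260.7, 215.8 and 358 CPM in N4d cells (-0.53 ± 0.20, adjusted p = 0.317).

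Hmgcs1 had 216.8, 148.98, 374 and 224.3 CPM in IN cells against 509, 511, 808 and 426 CPM in N4d cells (-1.22 ± 0.18, adjusted p = 0.0067, edgeR), and was lost without E12 (0.0727) and without the day block (0.0528). Sqle, squalene epoxidase, had 69.3, 81.9, 132.5 and 60.7 CPM in IN cells against 224.1, 256.004, 225.05 and 202.9 CPM in N4d cells (-1.42 ± 0.25, adjusted p = 0.0163), and was lost without E12 (0.129), E13 (0.0956) or E15 (0.0545). Neither gene overlapped between the classes. Insig1 had 16.0, 6.33, 31.2 and 23.1 CPM in IN cells against 65.3, 57.9, 81.5 and 65.5 CPM, also without overlap, but did not pass in edgeR (-1.97 ± 0.48, adjusted p = 0.0847), whereas DESeq2 called it (0.00178).

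IN cells had fewer detected genes on every day, with medians of 3363 to 3714 genes per cell against 4089 to 4392 in N4d cells. Their median counts per cell were 261561 to 279544, against 268578 to 402028 in N4d cells, and were lower on 3 of 4 days, E14 being the exception. The part of this in the result was not tested. The IN sums held 85, 44, 30 and 35 cells.

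AP cells at 24 h are labelled cells that were still in an AP cluster a day after injection. None of the 30 genes passed over AP cells at 1 h, nor did any of 9346 genes (background 0%, edgeR), and 1 member, Nsdhl, had an unadjusted p under 0.05; DESeq2 called none of the 30. The AP sums at 24 h held only 14, 22, 32 and 44 cells. Some members were listed near 0 in the smallest of them: Lss at 0.19 CPM, Sc5d at 0.569 CPM and Ebp at 0 in E12, against 41.8, 34.1 and 26.2 CPM in E12 AP cells at 1 h.

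Across injection days, the sterol genes were low in the N1d cells born last. Their summed level was 2605, 2629, 2363 and 1277 CPM in N1d cells from E12 to E15, so that E12 to E14 lay together and E15 stood far below them. E15 was below E14, which shares its run code, in all 18 sterol genes, with a median log2(CPM + 1) difference of -0.93, while 47.6% of 8024 expressed genes were below E14 and their median was 0.02. E13 was below E12, in the other run, in 12 of 18 genes with a median of -0.07, against 47.4% of the 8024 expressed genes. The low E15 level was not particular to the sterol genes. Of the 7 fatty acid genes, 6 were also lower at E15 than at E14 (median -0.50). Of the 5 control and carrier genes, 2 were lower, Insig1 (-1.34) and Srebf2 (-2.02), and the median of the 5 was 0.45.

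Each of the 18 sterol genes had its lowest N1d value at E15; Sqle had 194.8, 188.9, 202.8 and 100.2 CPM from E12 to E15. It was also present within the authors' later N1d cluster, to which 98.5% of the E15 and 89.5% of the E14 N1d cells belonged. In that cluster Fdft1 had 310 CPM at E15 against 591 CPM at E14, Sqle 100.8 CPM against 204.2 CPM, and Msmo1 77.4 CPM against 162.5 CPM. AP cells at 24 h from the same run did not follow, with 3470 CPM of summed sterol genes at E15 against 3623 CPM at E14. There 11 of 18 genes were lower, against 51.7% of expressed genes. N4d cells had 15 of 18 genes lower at E15 than at E14 (median -0.59), IN cells 15 of 18 (median -0.73) and BP cells, with 8 cells at E14, 12 of 18 (median -0.66). Of the expressed genes in N4d, IN and BP cells, 49.9%, 50.6% and 45.8% were lower at E15.

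A straight line on injection day gave negative slopes for all 18 sterol genes in N1d cells, with a median of -0.27 log2 units per day against -0.00 over all genes. No slope of the 30 genes passed in edgeR, where 0.471% of all genes did; 7 had an unadjusted p under 0.05, and Msmo1 (-0.65 ± 0.17 per day, adjusted p = 0.133) was called by DESeq2 alone. Without E15, 8 of the 18 slopes were negative and their median was 0.02. In N4d cells (96 h) and AP cells (1 h), the median slopes of the 18 were -0.05 and -0.02; no member passed in edgeR or DESeq2 (background 0.0490% and 0.912%), and 1 in each class, Scap and Ebp, had an unadjusted p under 0.05. The difference between the 3 class slopes did not pass for any member either (background 0.294%), with 4 members (Tm7sf2, Msmo1, Nsdhl and Dhcr7) under 0.05 unadjusted and none by DESeq2. The mean of the 3 class slopes passed for none (background 1.14%), with 3 (Acat2, Msmo1 and Acaca) under 0.05 unadjusted and none by DESeq2.

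The summed AP markers were highest at E15, the day of this drop. They took 565, 494, 612 and 1106 CPM in N1d cells from E12 to E15. From E14 to E15 Fabp7 rose from 319.1 to 593.6 CPM and Slc1a3 from 20.3 to 119.8 CPM. Pax6 (125.5 CPM) and Hes1 (33.6 CPM) were also highest at E15. The other AP markers did not follow. Sox2, Hes5, Nes and Vim had 7.40, 0.517, 33.6 and 192.1 CPM at E15. At E12 these genes had 11.3, 8.77, 44.2 and 197.9 CPM. The median genes detected per cell, 3485, 3702, 4533 and 4628, differed most between E13 and E14. The 6 excitatory neuron markers summed to 5604, 6051, 6815 and 5649 CPM. Median counts per cell were 236436, 321236, 409878 and 373750. Their part in the drop was not tested.

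Astrocytes gave 1 sum of size, 54 cells of E15 at 96 h, which has no replicate of similar size. There Scd2 reached 2567 CPM, Hmgcs1 1138 CPM, Elovl5 198.1 CPM and Srebf1 102.1 CPM, against highest values of 1139.8, 827, 97.4 and 78.2 CPM over the 24 sums of the other classes. The 7 fatty acid genes summed to 3324 CPM and the 18 sterol genes to 2924 CPM. Scd2 and Hmgcs1 had reads in all 54 cells, while Acly, at 101.5 CPM, lay below every N1d sum. In this sum the 6 astrocyte markers held by the table took 7631 CPM, the 2 markers of oligodendrocyte precursors 169.6 CPM (Olig1 102.6 CPM and Olig2 67.04 CPM), the 3 endothelial and mural markers 187.1 CPM (Pdgfrb 135.3 CPM and Rgs5 50.7 CPM) and the 2 meningeal markers 24.98 CPM, while both microglial markers were at 0. The sums for oligodendrocyte precursors, endothelial and mural cells and meninges lay above the highest values given for the other classes, and their part in the lipid gene levels was not tested. A further astrocyte sum, of only 7 cells of E14 at 96 h, took 7508 CPM of the 18 sterol genes and 3573 CPM of the 7 fatty acid genes. The sterol level of astrocytes thus differed widely between these 2 sums.

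Over the 25 class sums of at least 20 cells, the members rose and fell partly together. The median Pearson r of log2(CPM + 1) was 0.294 over the pairs of sterol genes, of which 81.7% were positive, and 0.407 over 15 pairs of fatty acid genes, against 0.007 over all pairs of expressed genes. The sums share runs, days and depth, so these values only describe the set. The closest pairs were Idi1 with Msmo1 (0.876) and Idi1 with Sqle (0.821). Acly had negative r with some members, such as -0.520 with Hmgcs1, -0.406 with Acaca and -0.353 with Fasn. With others its r was positive, such as 0.462 with Acat2, 0.409 with Srebf2 and 0.361 with Fdft1. The median r of Acly with the other fatty acid genes was -0.237, and that of Ebp with the other sterol genes was also negative, at -0.120.

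Other lipid genes gave a fuller picture of the same cells. Of 18 tested among 23 further genes of synthesis and its control, 5 passed in N1d cells over AP cells at 1 h, 4 of them lower, against 33.4% of all genes, so the share is not above the background. They included Lbr, which carries a sterol reductase domain (-2.42 ± 0.24, adjusted p = 1.4e-05), Tmem97, a regulator of sterol handling (-2.73 ± 0.32), and Tecr, an enoyl reductase of fatty acid elongation, which rose (0.68 ± 0.13). Within 24 h, where 11.0% of all genes were called in N1d over AP cells, Lbr was lower in N1d than in AP cells (-1.59 ± 0.38, adjusted p = 0.0213) and lower than in BP cells too (-1.80 ± 0.38, adjusted p = 0.0243). In N4d over N1d cells, 1 of 18 passed against 20.4% of all genes: Elovl4, which makes very long fatty acids, rose (1.21 ± 0.31, adjusted p = 0.0179).

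Of 14 tested among 19 genes of sterol transport, uptake and efflux, 4 were higher and 2 lower in N1d cells than in AP cells at 1 h (17.6% and 15.8% of all genes), led by Lrp8, a receptor for apolipoprotein E and reelin (2.07 ± 0.19), Gramd1a, a carrier of cholesterol from the plasma membrane (1.54 ± 0.18), and Stard3, a late endosomal sterol carrier (1.89 ± 0.25). In N4d over N1d cells 4 were higher and 2 lower (10.6% and 9.81% of all genes), led by Stard3, now lower (-2.44 ± 0.26), Cyp46a1, which turns neuronal cholesterol into 24-hydroxycholesterol (5.72 ± 0.92), and Vldlr, a lipoprotein receptor (2.79 ± 0.46). Cyp46a1 had been lower in N1d cells than in AP cells at 1 h (-6.49 ± 0.95, adjusted p = 0.000277). Within 24 h, Gramd1a was higher (1.14 ± 0.26) and Scarb1, a lipoprotein receptor, lower (-3.61 ± 0.97) in N1d than in AP cells. The highest adjusted p among these was 0.0346 (edgeR). Apoe, which encodes the main apolipoprotein of brain, was the gene of this list that passed for an injection day slope. It had 1.73 ± 0.34 log2 units per day in AP cells at 1 h (adjusted p = 0.0364, edgeR). The mean of the 3 class slopes was 0.84 ± 0.17 (adjusted p = 0.0397, edgeR). In N1d and N4d cells the Apoe slopes were -0.17 ± 0.29 and 0.97 ± 0.29 and did not pass (adjusted p = 0.866 and 0.366, edgeR). The difference between the 3 class slopes did not pass either (adjusted p = 0.197, edgeR).

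Of 14 fatty acid oxidation genes tested among 16, 5 passed in N1d cells over AP cells at 1 h, all lower, close to the 33.4% of all genes called and against 15.8% called lower. They included the dehydrogenase Acadl (-4.34 ± 0.80), the thiolase Acaa2 (-1.27 ± 0.27) and the electron carrier Etfa (-1.03 ± 0.26). The median change of the 14 was -0.86, with 11 negative, against -0.01 over all genes. Within 24 h, 3 passed, all lower, against 5.62% of all genes called lower: Acadm (-2.86 ± 0.57), Acaa2 (-1.71 ± 0.39) and Acadl (-4.96 ± 1.27). In N4d over N1d cells, 2 passed against 20.4% of all genes, Acaa2 (-1.52 ± 0.28) and Cpt2, the inner membrane carnitine transferase (-3.95 ± 1.04), both lower, with adjusted p-values of all these changes at or under 0.0286 (edgeR).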

How the data were processed

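The authors deposited unnormalized counts for every gene in each cell. Per the labels, cDNA was made with the SMARTseq v4 kit and libraries with Nextera XT. Per the submitters' processing notes, TopHat2 2.0.13, UMI-tools and the build GRCm38 were used; the counter, annotation, strand setting and filters are not given in the sources used here. Column totals were 0.987 to 1 times the read number in the labels, so counts were taken as reads.

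Counts were summed per cell class, injection day and collection time (sums of at least 5 cells). Genes with at least 10 CPM in at least 3 sums of a fit were tested with the edgeR 4.0.16 quasi-likelihood test (TMM scaling, Benjamini-Hochberg over all genes tested, threshold 0.05; R 4.3.3). One fit joined the AP sums of 1 h with the N1d sums of 24 h and the N4d sums of 96 h, with a level and a day line per class (6 residual degrees of freedom). The 24 h and 96 h fits had injection day as a block (6 and 3 degrees of freedom), and the AP fit a day line (5). The fits were tested on simulated data, and the outcome is not reported here. Gene positions and overlaps came from GENCODE, promoters from RefSeq. Tables used Python 3.11.15 and pandas 2.3.3.

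Alternatives were DESeq2 1.42.0, its size factors in edgeR, no filter, equal cell weight, leaving out each day, run code as a block, sums of at least 10 cells and no day block. All 30 members are named; of the 3 other lists, at most 3 genes past the threshold per contrast by smallest p, except that Tecr, and Cyp46a1 in N1d over AP cells, were named after their values were seen and some results are not reported here. The members and lists were chosen with earlier results of these data known.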

Additional observations from a re-analysis of the deposited data

Results flagged for a closer look

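Of 120 groups of 4 sums that were examined (15 members and 5 summed groups of genes over 6 classes), 7 held a day far from the other 3; chance flags about 1 in 20 groups. In N1d cells at 24 h, E15 stood apart for Fdft1 (308 CPM, others 584 to 611), Sqle (100.2 CPM, others 188.9 to 202.8) and Elovl5 (19.2 CPM, others 43.3 to 45.9). These 3 belong to the low E15 values described above. In AP cells at 1 h, E15 was high for Stard4 (92.2 CPM, others 71.6 to 72.7). Among summed groups, the mevalonate genes were high in E14 IN cells (738 CPM, others 505 to 529.6), the control and carrier genes low in E12 AP cells at 24 h (158.4 CPM, others 266.5 to 283.1), a sum of 14 cells, and the fatty acid genes high in E13 BP cells at 24 h (1653 CPM, others 1039.8 to 1094).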

How the results depend on the processing

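No paired analysis was possible because the labels give no replicate number that cells of different groups share; the day block above pairs classes of the same condition. The changes called for members with all days kept their direction under every alternative run. Of the changes that passed only in some alternative, those of Mvk and Fdps in N1d over AP at 1 h were -1.29 (adjusted p = 0.0420) and -0.74 (adjusted p = 0.0486) without E14 and turned round without E15, to 0.45 (adjusted p = 0.581) and 0.19 (adjusted p = 0.731), against -0.51 and -0.24 with all days (edgeR). Leaving out 1 day in turn gave 2 to 11 members called for N1d over AP at 1 h (10 with all days), 1 to 5 for N4d over N1d (7), 0 to 1 for BP over AP (1), 0 to 3 for N1d over AP at 24 h (4) and 1 to 3 for IN over N4d (3). With DESeq2 the calls were 5 for BP over AP (Scd2, Acly, Idi1, Hmgcs1 and Acaca), 6 for N1d over AP at 24 h (Fdft1 and Hmgcs1 added), 1 for N1d over BP and 1 for the day slope in N1d cells. With sums of at least 10 cells, which leaves out E14 BP cells, BP over AP gave 3 calls (Scd2, Acly and Fasn) and N1d over AP 6 (Fdft1 and Fasn added). Without the day block, BP over AP gave 0 calls, N1d over AP at 24 h gave 1 (Idi1) and IN over N4d gave 2 (Fdft1 and Sqle). Over all genes, the day slope in N1d gave 48 calls with edgeR and 386 with DESeq2, and BP over AP gave 1.06% with edgeR and 696 genes with DESeq2; the cause was not tested. Sums of few cells and the small number of days limit what these fits can show.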
